A study of Rattus norvegicus with 3 samples.

Results

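Arg1, Arg2, Nos2, Irg1 and Odc1, the enzymes that open the arginine and itaconate pathways of activated macrophages, were followed through nuclei of the injured rat spinal cord. These 5 of the 17328 genes in the count matrices were taken by symbol, and Irg1 is the older symbol of Acod1. Nuclei came from the lesion epicenter of WT rats of the strain labelled SDrat (Sprague Dawley), 17 weeks old, collected 49 days after spinal cord injury. There were 3 groups with 1 library each: injured cord with no treatment (untreated), injured cord that had carried an implanted scaffold for 7 days (scaffold), and injured cord that had carried a scaffold releasing hepatocyte growth factor, HGF, for 7 days (HGF scaffold). All 3 groups carried the injury, so no uninjured cord enters any comparison, and the number of animals behind a library is not given in the labels. With 1 library per group no difference has a replicate check and no p-value is given. Every interval below is an exact 95% interval for counting error only. Arg1 was highest in macrophage-like nuclei, and Nos2 and Irg1 in a small neutrophil-like group of nuclei. Odc1 followed neither, and Arg2 had too few UMIs to be placed.

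As background, arginase 1 (Arg1, cytosolic) and arginase 2 (Arg2, mitochondrial) split arginine into urea and ornithine, and ornithine decarboxylase (Odc1) turns ornithine into putrescine, the first polyamine. Inducible nitric oxide synthase (Nos2) uses the same arginine to make nitric oxide and citrulline, so arginases and Nos2 compete for a substrate. Irg1 encodes aconitate decarboxylase, which draws cis-aconitate out of the Krebs cycle to make itaconate, an acid that inhibits succinate dehydrogenase and modifies KEAP1. In rodent macrophages Arg1 is a classic target of interleukin 4 and interleukin 13, whereas Nos2 and Irg1 are induced by bacterial products and interferon, and in injured cord Arg1 and Nos2 are commonly used to mark opposed macrophage states.

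Promoter sequences were matched for 2 of the 5 members, one whose counts differed widely between libraries and one whose counts did not, in RefSeq's rat table on build GRCr8. Each window runs 5′ to 3′ on the plus strand from 250 bases before to 50 bases after the annotated start, and capitals mark the motif matches described next.
Irg1 (Acod1), chr15:86286289-86286588: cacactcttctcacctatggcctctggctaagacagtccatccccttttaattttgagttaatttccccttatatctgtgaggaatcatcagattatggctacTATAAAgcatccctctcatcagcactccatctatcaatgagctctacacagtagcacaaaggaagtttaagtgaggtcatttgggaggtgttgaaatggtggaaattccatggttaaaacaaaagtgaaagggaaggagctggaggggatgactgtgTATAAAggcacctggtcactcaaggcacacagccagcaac
Odc1, chr6:46058415-46058714: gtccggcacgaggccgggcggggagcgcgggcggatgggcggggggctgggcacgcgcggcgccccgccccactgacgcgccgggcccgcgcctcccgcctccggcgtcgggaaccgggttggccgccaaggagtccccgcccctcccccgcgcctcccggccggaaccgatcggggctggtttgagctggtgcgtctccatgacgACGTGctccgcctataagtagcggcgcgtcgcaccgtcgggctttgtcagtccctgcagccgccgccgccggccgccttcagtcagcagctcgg
The capitals in the Irg1 window are TATAAA at bases 104 to 109 and again at bases 261 to 266, the second lying past the annotated start. TATAAA occurred on either strand in 14.2% of the 33469 promoters of the table. The capitals in the Odc1 window are ACGTG, the core searched for hypoxia-inducible factor, at bases 207 to 211, which 19.3% of promoters hold. GC content was 44.0% in the Irg1 window and 77.3% in the Odc1 window against a median of 51.7%, and 22.0% and 98.1% of promoters had a lower GC content. Neither window held the letters GGG and CC set apart by 5 bases of any kind (NF-kappaB, in 47.3% of promoters), TTNCNNAA (C/EBP, 41.3%), TGANTCA (AP-1, 7.33%), TTCNNNGAA (STAT, 8.87%), TTC and GAA set apart by 4 bases (STAT6, 7.28%), TTTC repeated after 2 bases (ISRE, 3.92%) or CACGTG (E-box, 6.42%, which contains ACGTG), searched on both strands. These matches describe letters in a window of 300 bases and nothing about a factor's binding.

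The untreated, scaffold and HGF scaffold libraries kept 2248, 2167 and 891 nuclei, with 5953189, 5791715 and 1450757 unique molecular identifiers (UMIs) deposited and median depths of 1408.5, 1639 and 1033 UMIs per kept nucleus. Libraries shared at most 3 barcodes. Nuclei were clustered without the 5 members and without the genes of the pathway lists used below, so no member's level helped to form a cluster. Lineages were named from marker lists, and that for macrophages includes Msr1 and Mrc1, whose levels below are therefore not independent of the name. Summed macrophage markers stood at 7694 and 8262 CPM in macrophage-like nuclei of the scaffold and HGF scaffold libraries, against 1977 to 3514 CPM in scaffold neurons, oligodendrocytes, endothelial nuclei, fibroblasts and astrocytes. Macrophage-like nuclei numbered 23 (untreated), 359 (scaffold) and 293 (HGF scaffold), and microglia-like nuclei 205, 119 and 27. A neutrophil-like cluster led by Cxcl2, G0s2, Slpi, Ccl3 and Il1b numbered 0, 57 and 8 nuclei. With 57 of its nuclei in a single library it may mark that library rather than a cell type, and the granulocyte genes Cxcr1, Ltf, Camp, Ngp and Fpr1 were at 0 in its scaffold nuclei although 10 of 15 neutrophil markers were detected. A cluster led by Lyz2 and Mmp3, with as many fibroblast as macrophage markers, stayed unnamed with 30, 82 and 81 nuclei. Its macrophage markers summed to 6547 CPM in the scaffold library, below the macrophage-like sum. In the HGF scaffold library they summed to 9455 CPM (8882 to 10056), above it. Scaffold neutrophil-like and microglia-like nuclei reached 4463 and 3775 CPM. A high sum of these markers was therefore not unique to macrophage-like nuclei. Neutrophil markers summed to 3465 and 3134 CPM in neutrophil-like nuclei of the scaffold and HGF scaffold libraries. In an unnamed cluster led by Pik3c2g and Dcdc5 they summed to 371 CPM with scaffold. They reached 10087 CPM on 141 UMIs in its 5 HGF scaffold nuclei, so a high sum was not unique to neutrophil-like nuclei either. Oligodendrocytes, their precursors (OPC), astrocytes, neurons, endothelial, mural, fibroblast and Schwann nuclei are summed as other lineages, 1429, 1105 and 361 nuclei.

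Levels are given as CPM, a gene's UMIs scaled to the summed UMIs of the same nuclei. Arg1 stood at 8.41 CPM (50 UMIs) over all untreated nuclei, 115 CPM (664 UMIs) over all scaffold nuclei and 129 CPM (180 UMIs) over all HGF scaffold nuclei. Both implanted libraries were far above the untreated one and near each other. The scaffold over untreated ratio was 13.6 (10.2 to 18.6), and the HGF scaffold over scaffold ratio was 1.13 (0.952 to 1.33), 2 comparisons that share the scaffold library. A sum over all nuclei moves with the share of each lineage as well as with the RNA per nucleus. In macrophage-like nuclei Arg1 was at 63.5 CPM on 2 UMIs in the untreated library, 329.8 CPM (292 to 371, 274 UMIs) with scaffold and 272 CPM (223 to 329, 105 UMIs) with HGF scaffold. Arg1 was found in 109 of 359 scaffold nuclei of this lineage (30.4%, 25.6 to 35.4, median depth 2010 UMIs) and in 53 of 293 HGF scaffold nuclei (18.1%, median depth 1004 UMIs). Macrophage-like nuclei held 41.3% of the Arg1 UMIs of the scaffold library in 16.6% of its nuclei, and 58.3% of those of the HGF scaffold library in 32.9% of its nuclei.

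The order of Arg1 levels in the scaffold library began with macrophage-like nuclei, followed by neutrophil-like nuclei at 227 CPM (163 to 308) and the Lyz2 Mmp3 cluster at 192 CPM (127 to 280). Intervals of each neighbouring pair in that order overlapped, although the neutrophil-like over macrophage-like ratio of 0.689 (0.484 to 0.960) did not include 1. By the definition of mixed nuclei given below, 10 of the 57 neutrophil-like nuclei were mixed, against 4 of the 359 macrophage-like ones. Schwann nuclei stood at 136 CPM on 13 UMIs, fibroblasts at 98.3, endothelial nuclei at 83.7, astrocytes at 80.1, OPC at 70.9, microglia-like nuclei at 61.0, oligodendrocytes at 56.6 and neurons at 47.4 CPM. Macrophage-like nuclei were 4.57 times as high as other lineages in sum (3.85 to 5.43) and 5.41 times as high as microglia-like nuclei (2.70 to 12.6). In the HGF scaffold library the macrophage-like over other lineages ratio was 4.18 (2.91 to 6.09), and 0 of 27 microglia-like and 0 of 8 neutrophil-like nuclei held Arg1. On these zeros the macrophage-like over microglia-like ratio was at least 1.95, with a lower limit of 1.56. The intervals for neutrophil-like over macrophage-like (0 to 1.03) and microglia-like over other lineages (0 to 2.75) included 1. Other lineages were also above their untreated level, at 72.2 CPM with scaffold against 7.02 CPM, a ratio of 10.3 (7.14 to 15.2). The small cycling macrophage-like cluster, led by the mitotic genes Iqgap3 and Ect2, held Arg1 at 161 CPM in 13 scaffold nuclei and 219 CPM in 9 HGF scaffold nuclei, beside 342 and 275 CPM in the main macrophage-like cluster. The interval of the scaffold cycling nuclei (73.5 to 305) did not include the main cluster's level, and that of the HGF scaffold ones (71.3 to 512) did.

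**Figure D1:**
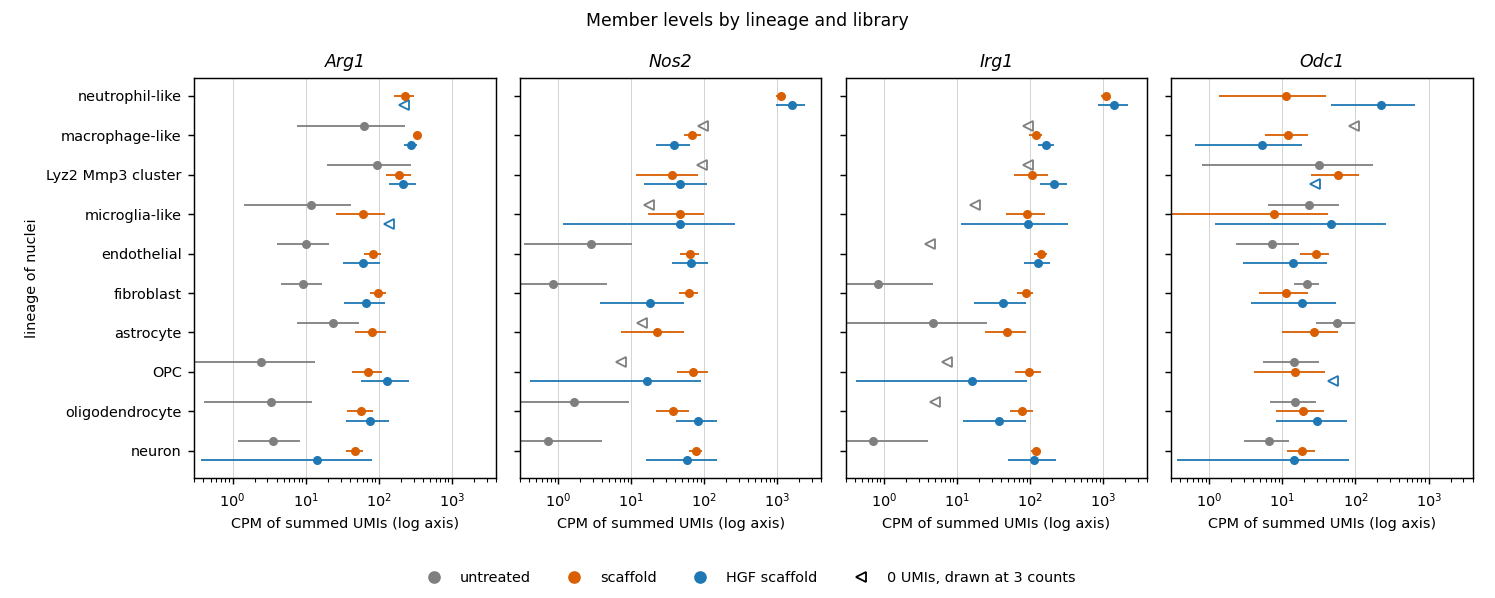
Levels of Arg1, Nos2, Irg1 and Odc1 as CPM of summed UMIs (log axis) by lineage, for the untreated (grey), scaffold (orange) and HGF scaffold (blue) libraries; bars are 95% counting intervals and open triangles mark 0 UMIs drawn at the level of 3 counts. Arg1 was highest in macrophage-like scaffold nuclei (329.8 CPM), Nos2 and Irg1 lay above 1000 CPM in neutrophil-like nuclei alone, and Odc1 rested on 10 UMIs or fewer in macrophage-like nuclei of each library.

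Nos2 stood at 0.841 CPM (5 UMIs) over all untreated nuclei, 91.9 CPM (532 UMIs) with scaffold and 62.6 CPM (87 UMIs) with HGF scaffold. The scaffold over untreated ratio was 109 (46.6 to 338), and the HGF scaffold over scaffold ratio was 0.681 (0.536 to 0.856). Without neutrophil-like nuclei these ratios were 70.4 (29.9 to 218) and 0.810 (0.612 to 1.06), so the second interval then included 1. Neutrophil-like nuclei carried the gene at 1109 CPM (200 UMIs, 40 of 57 nuclei) with scaffold and 1567 CPM (21 UMIs, 7 of 8 nuclei) with HGF scaffold. They were 2.63% of scaffold nuclei and held 37.6% of the library's Nos2 UMIs. Macrophage-like nuclei held Nos2 at 0 UMIs in 23 untreated nuclei (0 to 117 CPM). Nos2 stood there at 68.6 CPM (52.0 to 88.9, 57 UMIs) with scaffold and 38.9 CPM (21.8 to 64.1, 15 UMIs) with HGF scaffold. Both levels lie inside the untreated interval. The neutrophil-like over macrophage-like ratio was 16.2 (12 to 22.1) with scaffold and 40.3 with HGF scaffold. The scaffold value was 6.0 with the members and list genes kept in the clustering and 6.74 with nuclei assigned by marker score.

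The macrophage-like level of Nos2 with scaffold was close to those of neurons, OPC, endothelial nuclei and fibroblasts. In the scaffold library neurons stood at 77.2 CPM, OPC at 70.9, macrophage-like nuclei at 68.6, endothelial nuclei at 63.8, fibroblasts at 61.8, microglia-like nuclei at 45.8, oligodendrocytes at 37.8 and astrocytes at 22.3 CPM. From neurons to oligodendrocytes, each interval overlapped that of its neighbour. The macrophage-like over other lineages ratio was 1.09 (0.800 to 1.46) with scaffold and 0.796 with HGF scaffold, and equal weight per nucleus gave 1.92 and 2.13. The scaffold value was 1.81 (1.29 to 2.51) at a finer clustering, 1.55 (1.18 to 2.03) with nuclei assigned by marker score and 1.43 (1.02 to 2.0) without mixed nuclei, so its interval excluded 1 under those 3 settings. The HGF scaffold value was 0.367 (0.126 to 0.888) among nuclei with at least 1000 UMIs. Of scaffold neurons 18.2% held a Nos2 UMI at a median depth of 4443.5 UMIs, against 8.64% of macrophage-like nuclei at 2010 UMIs. After thinning each nucleus to 1000 UMIs the shares were 6.42% (3.36 to 10.9) and 5.81% (3.53 to 8.93). With scaffold the Nos2 share of macrophage-like nuclei was therefore not separable from that of neurons at matched depth. With HGF scaffold the 2 sets parted among shallow nuclei, where between 500 and 1000 UMIs Nos2 was in 9 of 144 macrophage-like nuclei (85.0 CPM, 38.9 to 161) and 0 of 159 nuclei of other lineages (0 to 33.5 CPM). The HGF scaffold over scaffold ratio of Nos2 in macrophage-like nuclei was 0.567 with an interval of 0.298 to 1.01 that included 1, and 1.19 with each library clustered alone.

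Irg1 was at 0.673 CPM (4 UMIs) over all untreated nuclei, 133 CPM (767 UMIs) with scaffold and 127 CPM (176 UMIs) with HGF scaffold. Its scaffold over untreated ratio was the highest among the members with a ratio, at 197 (76.6 to 725, an interval that overlapped that of Nos2), or 151 (58.8 to 558) without neutrophil-like nuclei. The implanted libraries were near each other, with a ratio of 0.955 (0.806 to 1.13). Neutrophil-like nuclei held Irg1 at 1087 CPM (196 UMIs, 33 of 57 nuclei) with scaffold and 1418 CPM (19 UMIs, 7 of 8 nuclei) with HGF scaffold, and 25.6% of the scaffold library's Irg1 UMIs. Macrophage-like nuclei held Irg1 at 0 UMIs in the untreated library (0 to 117 CPM). Irg1 stood there at 120.3 CPM (97.9 to 146, 57 of 359 nuclei) with scaffold, an interval that overlapped the untreated one. With HGF scaffold it was at 166 CPM (128 to 212, 35 of 293 nuclei). The neutrophil-like over macrophage-like ratio with scaffold was 9.03 (7.06 to 11.6), and 3.66 and 3.74 under the same pair of alternatives that lowered Nos2. None of the 13 scaffold and 9 HGF scaffold nuclei of the cycling macrophage-like cluster held Irg1, which allows up to 65.9 and 162 CPM. The first limit lies below the interval of the main macrophage-like cluster (129 CPM, 105 to 157), and the second does not (176 CPM, 136 to 225).

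The libraries differed in how Irg1 was spread over lineages. With scaffold, endothelial nuclei stood at 142 CPM, neurons at 121, macrophage-like nuclei at 120.3, OPC at 97.0, fibroblasts at 87.1, oligodendrocytes at 77.9, astrocytes at 49.0 and an unnamed cluster led by Ccl21 and Ptgds at 8.94 CPM. Intervals of neighbours in that order overlapped, down to the last pair (24.4 to 87.6 and 1.08 to 32.3). The macrophage-like over other lineages ratio was 1.13 (0.898 to 1.41) with scaffold and 2.20 (1.5 to 3.24) with HGF scaffold. The scaffold value was 1.76 (1.37 to 2.25) at a finer clustering, 1.46 (1.16 to 1.83) with members and list genes kept in the clustering and 1.45 (1.12 to 1.87) without mixed nuclei, so its interval excluded 1 under those 3 settings. The HGF scaffold value was 1.5 (0.943 to 2.38) among nuclei with at least 1000 UMIs, so its interval then included 1, and 3.94 with equal weight per nucleus. Macrophage-like nuclei had an HGF scaffold over scaffold ratio of 1.38 (0.991 to 1.90), or 2.06 (1.53 to 2.79) with each library clustered alone, and the Lyz2 Mmp3 cluster one of 2.01 (1.01 to 4.15). In other lineages that ratio was 0.709 (0.519 to 0.95), and 0.928 (0.711 to 1.20) with doublet calls kept. The Lyz2 Mmp3 cluster, which is not among the other lineages, held 15 Irg1 UMIs in 82 scaffold nuclei and 23 in 81 HGF scaffold nuclei. Macrophage-like nuclei held 100 in 359 and 64 in 293. Irg1 was thus not particular to macrophage-like nuclei within these myeloid-marked groups.

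Neurons, endothelial nuclei and oligodendrocytes also held Irg1 in the implanted libraries, and its level in mixed nuclei differed between those lineages. Irg1 was in 1 of 159 untreated neurons and 42 of 198 scaffold neurons, and 85 of the 151 neuronal UMIs came from 5 nuclei, one of which held 30. The scaffold neuron share, 21.2% at a median depth of 4443.5 UMIs, was above the 15.9% of macrophage-like nuclei at 2010 UMIs. Nuclei were called mixed when 5 or more of 7 lineages were each represented by 3 or more markers, and 127 untreated, 213 scaffold and 19 HGF scaffold nuclei met that definition. Scaffold neurons that were mixed held Irg1 at 180.3 CPM and the others at 35.6 CPM (21.1 to 56.2), the latter below the macrophage-like interval. Endothelial nuclei did not show that gap, at 133 CPM in mixed and 157 CPM (113 to 212) in other scaffold nuclei, and oligodendrocytes held 26.8 CPM on 1 UMI in mixed and 82.8 CPM (56.7 to 117) in other nuclei. Summed macrophage markers in neurons stood at 547 CPM in the untreated and 1977 CPM in the scaffold library, beside 7694 CPM in scaffold macrophage-like nuclei. Summed neutrophil markers in neurons stood at 13.8 and 205 CPM, beside 3465 CPM in scaffold neutrophil-like nuclei, with Ngp alone at 0 among 15 markers in scaffold neurons. In HGF scaffold neurons macrophage markers summed to 951 CPM and neutrophil markers to 1340 CPM on 93 UMIs, with 7 of the 15 at 0. The part of free RNA or of joined nuclei in these levels was not tested.

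Detection depended on depth in different ways in the 2 sets of nuclei. In scaffold nuclei of other lineages the share with an Irg1 UMI was 4.50% under 1000 UMIs, 10.5% between 1000 and 3000 and 28.3% at 3000 or more. The macrophage-like shares were 12.5%, 16.3% and 15.7%. For Arg1 the shares were 6.11%, 8.81% and 27.3% in other lineages and 6.25%, 27.2% and 52.9% in macrophage-like nuclei, so the latter were above from 1000 UMIs upward. After thinning to 1000 UMIs, Arg1 was in 22.0% (17.6 to 26.9) of scaffold macrophage-like nuclei and 6.17% (4.6 to 8.08) of other lineages, shares whose intervals did not overlap. The thinned Irg1 shares were 9.48% (6.53 to 13.2) and 6.93% (5.26 to 8.92), whose intervals did overlap. In the HGF scaffold library they were 8.05% (4.23 to 13.6) and 6.93% (3.84 to 11.4). Thinning to 1000 UMIs left out 144 of the 293 HGF scaffold macrophage-like nuclei with under 1000 UMIs, and those shallow nuclei did differ. Between 500 and 1000 UMIs Irg1 stood there at 274 CPM (183 to 393, 12.5% of nuclei) against 36.4 CPM (9.91 to 93.1, 2.52%) in other lineages. With scaffold the levels between 1000 and 3000 UMIs were 149 CPM (117 to 187) and 84.0 CPM (64.8 to 107), and at 3000 or more 64.7 CPM (39.5 to 99.9) and 115 CPM (103 to 128). Macrophage-like Irg1 thus stood above other lineages in those shallower ranges and below them in the deepest scaffold nuclei, where mixed nuclei were not left out. Intervals overlapped in scaffold nuclei under 1000 UMIs, at 244 CPM (89.7 to 532, 6 UMIs) against 81.3 CPM (48.2 to 128). They also overlapped in HGF scaffold nuclei between 1000 and 3000 UMIs, at 141 CPM (95.2 to 201) against 72.4 CPM (42.9 to 114).

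**Figure D2:**
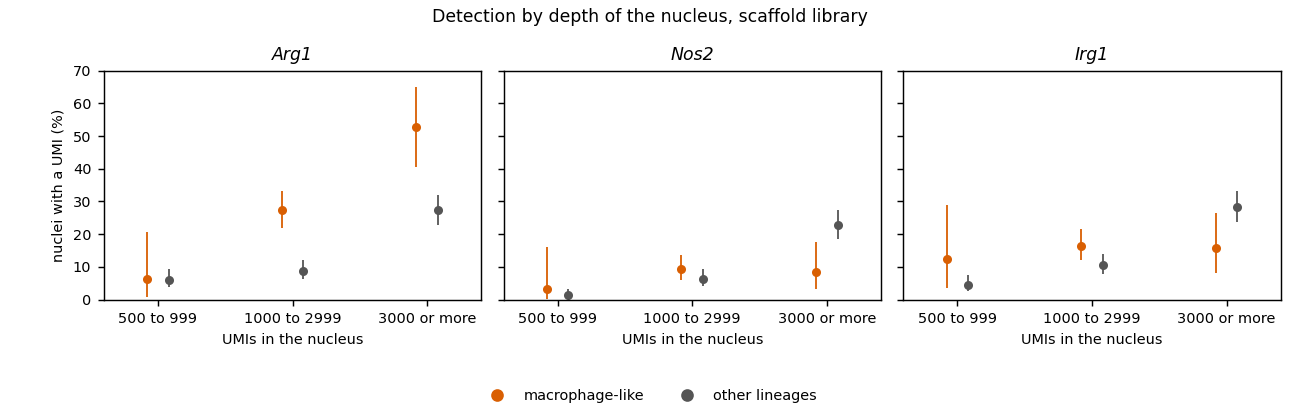
Share of scaffold nuclei with at least 1 UMI of Arg1, Nos2 or Irg1 (percent) in 3 ranges of depth per nucleus, for macrophage-like nuclei (orange) and other lineages (grey), with 95% binomial intervals. At 3000 UMIs or more the macrophage-like share was above other lineages for Arg1 (52.9% against 27.3%) and below them for Nos2 (8.57% against 22.7%) and Irg1 (15.7% against 28.3%). This range has no upper limit, so depth was not matched within it, and mixed nuclei were not left out.

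The make-up of the 3 inducible members, taken as shares of their summed UMIs within a lineage, set macrophage-like and neutrophil-like nuclei apart. Since the 3 transcripts differ in length, such shares compare lineages and not genes. In scaffold macrophage-like nuclei Arg1, Nos2 and Irg1 made up 63.6%, 13.2% and 23.2%, and in HGF scaffold macrophage-like nuclei 57.1%, 8.15% and 34.8%. In scaffold neutrophil-like nuclei they made up 9.38%, 45.8% and 44.9%, and in those of the HGF scaffold library 0%, 52.5% and 47.5%. Neurons of the scaffold library stood at 19.3%, 31.4% and 49.3%, endothelial nuclei at 28.9%, 22.1% and 49.0%, fibroblasts at 39.8%, 25% and 35.2%, and astrocytes at 52.9%, 14.7% and 32.4%. The neuronal shares of Arg1 and Nos2 lay between those of macrophage-like and neutrophil-like nuclei, and the Irg1 share lay above both. In the untreated library, on 59 UMIs in all, Arg1 made up 84.7%.

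Odc1 did not share the wide gap between implanted and untreated cord, and Arg2 had too few UMIs to tell. Odc1 was at 15.1 CPM (90 UMIs) untreated, 21.1 CPM (122 UMIs) with scaffold and 16.5 CPM (23 UMIs) with HGF scaffold. These are ratios of 1.39 (1.05 to 1.85) for scaffold over untreated and 0.785 for HGF scaffold over scaffold, whose interval of 0.480 to 1.23 included 1. In macrophage-like nuclei it stood at 12 CPM on 10 UMIs with scaffold and 5.18 CPM on 2 UMIs with HGF scaffold, below the 19.3 and 20.7 CPM of other lineages but with intervals of the ratio that included 1. Endothelial nuclei went from 7.15 to 28.4 CPM between untreated and scaffold, a ratio of 3.97 (1.45 to 13.5), and neurons from 6.52 to 18.5 CPM, a ratio of 2.84 (1.27 to 6.97). Fibroblasts stood at 21.9 and 11.2 CPM, a ratio of 0.511 (0.200 to 1.17). Arg2 was nearly absent from these counts, with 4 UMIs untreated, 4 with scaffold and 1 with HGF scaffold, never more than 1 UMI in a nucleus, and no ratio is given.

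A minimum of 20 UMIs summed over the sides compared was passed by 4 members, of which 3 were at least 2-fold higher in scaffold than in untreated nuclei and 0 at least 2-fold lower, where 7.12% and 3.98% of the 11931 genes tested were. Between HGF scaffold and scaffold macrophage-like nuclei, 3 members were tested and 0 passed 2-fold in either direction, where 3.27% of genes were higher and 4.52% lower. Between neutrophil-like and macrophage-like scaffold nuclei, 2 of 3 members were at least 2-fold higher and 0 lower, where 10.9% and 9.64% of the genes tested were. Between macrophage-like nuclei and other lineages, 1 of 4 members, Arg1, was at least 2-fold higher with scaffold and 0 lower, where 6.77% and 23.4% of genes were. With HGF scaffold 2 of 3 members, Arg1 and Irg1, were at least 2-fold higher and 0 lower, where 10.9% and 19.9% of genes were.

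Nuclei that held Irg1 were set beside those that did not. Of 359 scaffold macrophage-like nuclei, 82 held Arg1 alone, 31 Irg1 alone, 14 Nos2 alone, 17 Arg1 with Irg1, 8 Arg1 with Nos2, 7 Nos2 with Irg1, 2 all 3 and 198 none. Arg1 was in 19 of 57 nuclei with Irg1 (33.3%, 21.4 to 47.1) and in 29.8% of those without. Both genes together were in 5.29% of nuclei, beside 4.82% for the product of their shares. Thinned to 1000 UMIs, Arg1 was in 16.1% (5.45 to 33.7) of nuclei with Irg1 and 22.6% of those without, and requiring 2 UMIs of each gene gave 18.2% and 13.4%. In the HGF scaffold library 5 of 35 Irg1 nuclei held Arg1 (14.3%, 4.81 to 30.3) against 18.6% of the rest, and 0 of 21 did at 2 UMIs. The Arg1 share of nuclei with Irg1 was thus above that of nuclei without under some of these settings and below it under others.

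Neutrophil-like nuclei combined Nos2 with Irg1. Of 57 scaffold nuclei 17 held Nos2 with Irg1, 11 Nos2 alone, 6 Irg1 alone, 2 Arg1 alone, 2 Arg1 with Nos2, 10 all 3 and 9 none. Nos2 was in 27 of 33 nuclei with Irg1 (81.8%, 64.5 to 93) and 54.2% of those without, but thinned to 1000 UMIs the shares were 40.0% and 45.0%, so the difference was not detectable at matched depth. In the HGF scaffold library 6 of 8 held both Nos2 and Irg1 and none held Arg1. All 3 genes together were found in 0 untreated, 37 scaffold and 5 HGF scaffold nuclei. Of the 37, 27 were mixed nuclei, and 10 remained without mixed nuclei, 3 at 1000 UMIs and 0 at 500 UMIs. Of the 21 such nuclei in other lineages, 19 were mixed and their median depth was 11517 UMIs.

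**Figure D3:**
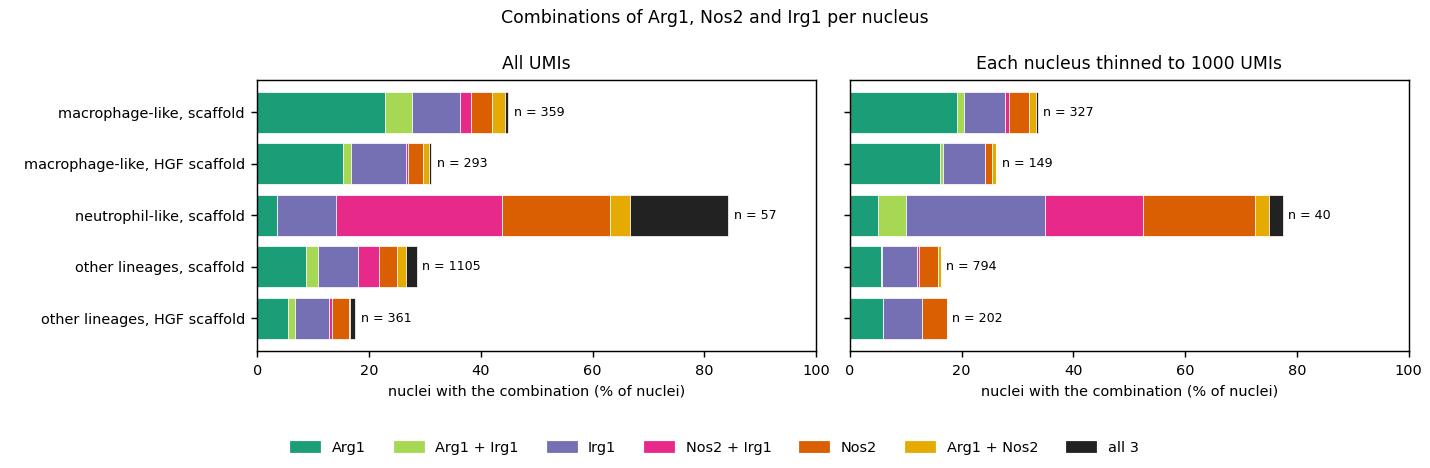
Share of nuclei (percent) holding each combination of Arg1, Nos2 and Irg1, with all UMIs (left) and with each nucleus thinned to 1000 UMIs (right); n is the number of nuclei. Arg1 alone was the most frequent combination in macrophage-like nuclei (82 of 359 with scaffold), and Nos2 with Irg1 in neutrophil-like nuclei (17 of 57) before thinning.

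Gch1, Slc7a2 and Ass1 had the largest ratios between scaffold and untreated nuclei in the arginine-related lists. For scaffold over untreated, 7.12% of the 11931 genes tested were at least 2-fold higher and 3.98% lower. Of 5 arginine transport genes tested, 2 were at least 2-fold higher and 0 lower, with a median ratio of 1.73 against 1.03 over all genes. They were Slc7a2, the cationic amino acid transporter of activated macrophages, at 115 CPM untreated and 524 CPM with scaffold (ratio 4.56, 4.19 to 4.96), and Slc7a7, the light chain of a transporter that exports cationic amino acids, at 83.7 and 177 CPM (2.11, 1.89 to 2.35). Ass1, which begins the rebuilding of arginine from citrulline, stood at 6.22 and 24.2 CPM (3.89, 2.69 to 5.75), while Asl, the next enzyme, had a ratio of 1.58 (1.28 to 1.94). Of 11 genes for the other nitric oxide synthases and their partners, 1 was at least 2-fold higher, Gch1, which makes the cofactor tetrahydrobiopterin, at 13.8 and 64.4 CPM (4.67, 3.67 to 6.01). The neuronal synthase Nos1 and the endothelial synthase Nos3 had ratios of 0.545 (0.430 to 0.689) and 0.706 (0.573 to 0.867). None of 10 polyamine synthesis genes and none of 4 polyamine breakdown genes passed 2-fold, with medians of 1.08 and 1.64 and the acetyltransferase Sat1 at 1.78 (1.64 to 1.93).

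On the itaconate side, 0 of 12 genes of substrate supply, targets and breakdown passed 2-fold, with a median ratio of 1.07. Among them Clybl and Sugct, which take part in the breakdown of itaconate-related acids, had ratios of 0.701 (0.632 to 0.777) and 0.580 (0.538 to 0.626). Of 10 genes of the response to electrophiles such as itaconate, 5 were at least 2-fold higher and 0 lower, with a median of 2.0. They included Hmox1, heme oxygenase 1, at 31.3 and 131 CPM (4.19, 3.56 to 4.94), Nfkbiz (3.72), Atf3 (3.48) and Nfe2l2, the KEAP1 target, at 2.89 (2.62 to 3.2). Srxn1 (1.85), Nqo1 (1.37), Gclc (1.32) and Keap1 (1.13) did not pass 2-fold, and Gclm was below 1 at 0.758 (0.608 to 0.943). Of 17 upstream regulators 8 were at least 2-fold higher and 0 lower. The largest ratios were those of Cebpb, a transcription factor of both Arg1 and inflammatory genes, at 6.29 (5.40 to 7.36), and Tlr2 at 5.68 (3.97 to 8.34). Il4r, the interleukin 4 receptor, followed at 4.27 (3.55 to 5.16) and Il6r at 2.89 (2.69 to 3.10). Pro-inflammatory myeloid genes passed in 12 of 13 tested, alternatively activated myeloid genes in 4 of 10 and phagocyte genes in 14 of 14. Over all 11931 genes tested 7.12% were at least 2-fold higher and 3.98% lower. The lists were chosen with earlier results of these data known. These sums over all nuclei move with the macrophage-like share, which was 23 of 2248 untreated and 359 of 2167 scaffold nuclei, so the same ratios are given within lineages. In other lineages Slc7a2 had a scaffold over untreated ratio of 3.69 (3.32 to 4.11), Gch1 of 4.06 (3.05 to 5.46), Ass1 of 2.39 (1.5 to 3.89), Hmox1 of 4.42 (3.6 to 5.46), Nfe2l2 of 2.94 (2.60 to 3.34) and Cebpb of 5.80 (4.76 to 7.12). In microglia-like nuclei Slc7a2 was at 1.03 (0.638 to 1.66), Slc7a7 at 1.11 (0.753 to 1.64) and Nfe2l2 at 1.19 (0.707 to 1.99), while Cebpb was at 4.13 (1.59 to 12.6).

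Neutrophil-like and macrophage-like scaffold nuclei both held the arginine entry gene at high levels. Slc7a2 was at 1646 CPM in the former and 1187 CPM in the latter, a ratio of 1.39 (1.21 to 1.58), and 0 of 5 transport genes passed 2-fold. Of the 6670 genes tested, 10.9% were at least 2-fold higher and 9.64% lower. Ass1 (2.23, 1.12 to 4.25) and Gch1 (1.96, 1.27 to 2.96) were higher beside Nos2 in neutrophil-like nuclei. Oaz1, the antizyme that directs ornithine decarboxylase to breakdown, was at 327 against 85.4 CPM (3.83, 2.66 to 5.48), Smox, spermine oxidase, at 172 against 83 CPM (2.07, 1.31 to 3.21), and Cebpb at 1247 against 220.2 CPM (5.66, 4.64 to 6.92). None of 12 genes of itaconate substrate supply, targets and breakdown passed 2-fold, with a median of 0.842, so the Irg1 gap of 9.03 had no counterpart among them. The phagocyte gene Spp1, osteopontin, was at 0.446 times the macrophage-like level (0.378 to 0.525).

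Macrophage-like nuclei stood above other lineages in Slc7a2 by 3.18 times with scaffold (2.93 to 3.45) and 4.47 times with HGF scaffold (3.67 to 5.46). Slc7a7 had ratios of 1.88 (1.61 to 2.18) and 3.08 (2.4 to 3.98), and Ass1 of 2.53 (1.57 to 4.0) and 3.28 (1.31 to 8.94). Nos3 and Nos1 were lower in macrophage-like nuclei, at 0.160 and 0.236 times other lineages with scaffold. Agmat, named as an agmatine hydrolase, was 2.90 times as high with scaffold (1.81 to 4.59). Sdhb, a subunit of succinate dehydrogenase, and Aco1, the cytosolic aconitase, were at 1.85 (1.49 to 2.28) and 1.84 (1.5 to 2.24).

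Within macrophage-like nuclei no member passed 2-fold between HGF scaffold and scaffold, whereas genes of the lists that did included Amd1, Oat, Agmat and Hmox1. Slc7a7 was at 289 CPM with scaffold and 456 CPM with HGF scaffold (1.58, 1.29 to 1.93), while Slc7a2 was at 1187 and 946 CPM (0.797, 0.705 to 0.900). Amd1, which supplies the aminopropyl donor of polyamine synthesis, stood at 89.1 and 220.3 CPM (2.47, 1.79 to 3.42), Oat, which links ornithine to proline, at 20.5 and 44.1 CPM (2.15, 1.03 to 4.49), and Agmat at 39.7 and 10.4 CPM (0.261, 0.0672 to 0.734). Hmox1 was at 149 and 345 CPM (2.31, 1.79 to 2.97) and Txnrd1, a thioredoxin reductase, at 380.3 and 254 CPM (0.668, 0.527 to 0.840). The mannose receptor gene Mrc1 was at 236 and 627 CPM (2.66, 2.19 to 3.23), and the chemokine gene Cxcl2 at 119 and 25.9 CPM (0.218, 0.101 to 0.417). Median depth of these nuclei was 2010 UMIs with scaffold and 1004 UMIs with HGF scaffold.

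Macrophage-like nuclei with an Arg1 UMI differed from those without in arginine transport, in the same direction in both implanted libraries. There were 109 with and 250 without in the scaffold library, with median depths of 2269 and 1889.5 UMIs, and 53 and 240 in the HGF scaffold library, at 1344 and 953.5 UMIs. Slc7a2 had a with over without ratio of 1.42 (1.25 to 1.62) and 2.14 (1.72 to 2.65), whereas Slc7a7 had one of 0.633 (0.468 to 0.846) and 0.445 (0.268 to 0.705). Azin1, the inhibitor of antizyme, had ratios of 2.03 (1.23 to 3.39) and 2.19 (0.963 to 4.81). Of the 5 phagocyte genes with the most UMIs, Apoe was lower at 0.671 and 0.652, Spp1 higher at 1.32 and 1.26, and Ctsb higher at 1.17 and 1.32, while the intervals of Msr1 included 1 in both libraries and Gpnmb was at 1.24 (1.11 to 1.38) and 0.924 (0.738 to 1.15). Of the alternatively activated genes with the most UMIs, Mrc1 (0.946 and 1.28), Folr2 (1.14 and 1.22), Tgfb1 (1.30 and 0.822) and Cd200r1 (1.28 and 0.805) had intervals that included 1 in both libraries, as did Gas6 with scaffold (1.35) and Il1rn with HGF scaffold (1.64). Among pro-inflammatory genes Nfkbia (0.902 and 0.751) and Sod2 (1.28 and 1.37) included 1, Il1b was at 0.811 (0.542 to 1.20) and 0.350 (0.109 to 0.875), Nlrp3 at 1.06 and 0.299, and Cxcl2 with scaffold at 4.32 (2.75 to 6.95).

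Macrophage-like nuclei with an Irg1 UMI had another set of neighbours. There were 57 with and 302 without in the scaffold library, at median depths of 2077 and 2009.5 UMIs, and 35 and 258 in the HGF scaffold library, at 983 and 1014.5 UMIs. Slc7a2 was again higher, by 1.74 (1.5 to 2.01) and 1.71 (1.29 to 2.23), but Slc7a7 was not lower, at 1.02 (0.708 to 1.43) and 1.56 (1.02 to 2.32). Il1b had ratios of 2.91 (1.97 to 4.24) and 1.81 (0.808 to 3.66), Nlrp3 of 1.74 (1.11 to 2.67) and 1.22, Sod2 of 1.45 (1.05 to 1.96) and 1.18, and Nfkbia of 1.26 and 1.16 with intervals that included 1. Nos2 was 2.47 times as high with scaffold (1.34 to 4.38) and Ass1 2.71 times (1.17 to 5.94). Gpnmb was at 0.658 (0.552 to 0.780) and 0.935, Ctsb at 0.799 (0.642 to 0.985) and 0.653 (0.420 to 0.976), Msr1 at 1.39 (1.14 to 1.69) and 0.853, Spp1 at 1.07 and 0.856, and Apoe at 1.30 (1.16 to 1.45) and 0.960. Mrc1 stood at 1.51 (1.06 to 2.12) and 1.03, Tgfb1 at 1.36 and 2.45, Folr2 at 0.663 and 1.41, and Cd200r1 at 0.580 and 0.532, the last with intervals that included 1. Neutrophil markers summed to 193 CPM in scaffold and 339 CPM in HGF scaffold macrophage-like nuclei, and the part of free neutrophil-like RNA in these ratios was not tested.

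**Figure D4:**
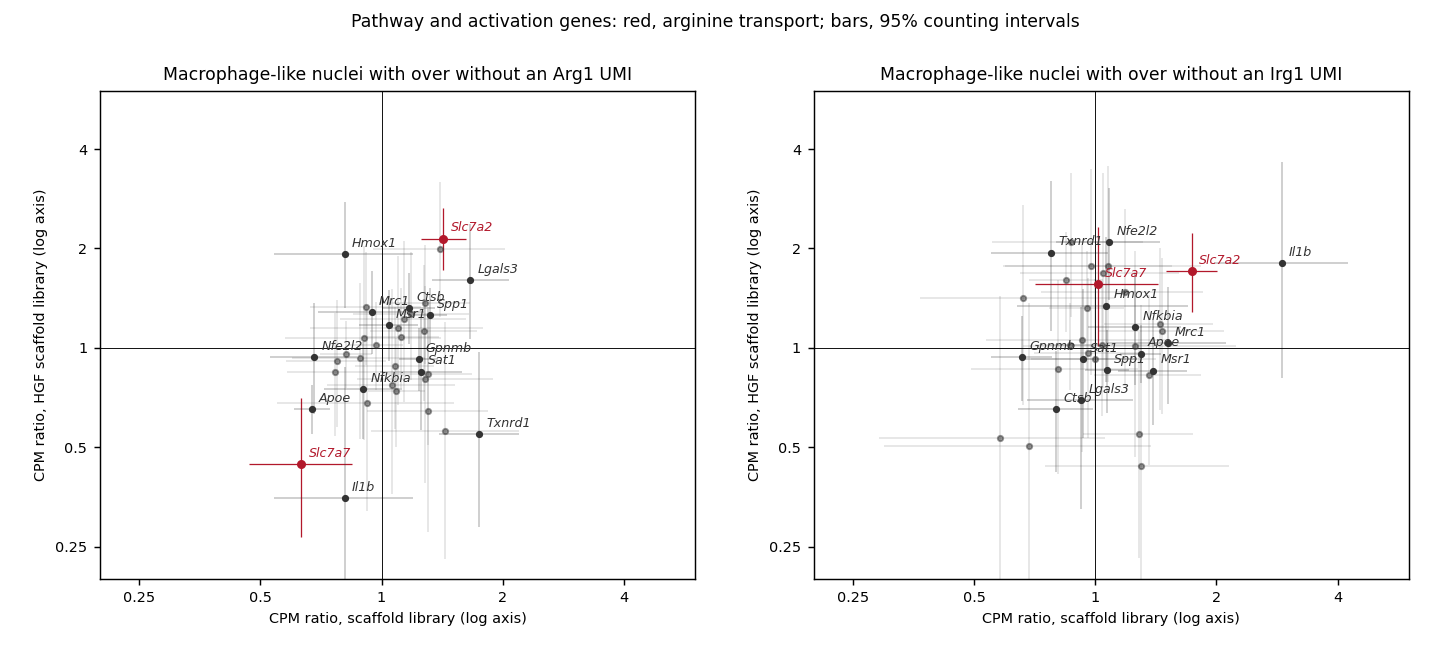
CPM ratio of macrophage-like nuclei with over without an Arg1 UMI (left) or an Irg1 UMI (right), scaffold library on the horizontal and HGF scaffold library on the vertical log axis, for pathway and activation genes with at least 50 UMIs in each library; bars are 95% counting intervals, red marks arginine transporters and a selection of genes is labelled. Slc7a2 lay above 1 in all 4 comparisons, and Slc7a7 below 1 with Arg1 (0.633 and 0.445) but not with Irg1 (1.02 and 1.56).

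Likeness of pattern was measured as Pearson's r of log2(CPM + 10) over 30 sums of a lineage or cluster in a library with at least 50 nuclei, among 10943 genes. The sums share libraries and depth, and so r is a description with no test. The genes most like Arg1 were Smpdl3a (0.956), Siglec10 (0.946), Gsap (0.945), the scavenger receptor gene Msr1 (0.944) and the folate receptor gene Folr2 (0.936). Those most like Nos2 were Ccl3 (0.957), Il1b (0.941), Cxcl2 (0.933), Il1rn (0.930) and Irg1 (0.927). Those most like Irg1 were Il1b (0.945), Il1rn (0.935), Nos2 (0.927), Nod2 (0.923) and Rab11fip1 (0.913). Arg1 had r of 0.886 with Irg1 and 0.805 with Nos2, at ranks 64 and 228 of its list. Odc1 was most like Cdipt (0.710), Dsc2 (0.675), Isca1 (0.672), Tmem100 (0.667) and Cant1 (0.656), and had r of 0.0765 with Arg1, 0.00701 with Nos2 and -0.0587 with Irg1. Arg2 had too few UMIs to be ranked.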

How the data were processed

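Single-nucleus RNA was measured in 3 libraries, 1 per group, so groups were described and not tested. The deposited matrices hold whole-number UMI counts per gene and nucleus, which the authors made; the submitters' processing notes name Cell Ranger 6.0.1; the genome build was not given in the sources used here. Kept nuclei had 200 genes or more, a mitochondrial share of 5% or less and no Scrublet doublet call. Scrublet called 0 untreated, 1 scaffold and 15 HGF scaffold nuclei, too few in the first 2 libraries, so mixed nuclei were left out as an alternative. They were clustered together in scanpy 1.11.5 with leidenalg 0.10.2 (2000 variable genes, 30 components, 15 neighbours, resolution 1, 24 clusters) and named from marker lists among the top 100 leading genes.

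UMIs were summed per library and lineage and scaled to CPM, with exact Poisson intervals; ratios carry exact conditional Clopper-Pearson intervals and shares exact Clopper-Pearson intervals, by scipy 1.17.1. A ratio was taken for genes with at least 20 UMIs over both sums added, 0 was set to 3 counts for bounds, and a call means at least 2-fold. Intervals cover counting error only.

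The members and lists were chosen with earlier results of these data known. Named genes were the 5 members, the 5 genes most like each, up to 4 genes per list with the largest ratio and, for nuclei with and without a member, the 5 genes of the last 3 lists with the most UMIs. Interval and ratio code was tested on simulated data.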

Additional observations from a re-analysis of the deposited data

Results flagged for a closer look

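Odc1 went opposite ways between the HGF scaffold and scaffold libraries in 2 lineages, the flagged pair among 745 pairs of lineages compared over the members. In neutrophil-like nuclei it stood at 224 CPM on 3 UMIs in 8 HGF scaffold nuclei and 11.1 CPM on 2 UMIs in 57 scaffold nuclei, a ratio of 20.2. In the Lyz2 Mmp3 cluster it stood at 0 UMIs in 81 HGF scaffold nuclei and 56.9 CPM on 8 UMIs in 82 scaffold nuclei, a ratio of at most 0.492. Each direction comes from 1 library per group, and the difference between the lineages was not tested.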

How the results depend on the processing

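No paired analysis was possible because each group has 1 library, and for the same reason no library was left out. Of 496 recomputed values 411 stayed within their counting interval or near their count of genes, 85 moved further and 0 of the values read as a difference changed direction. Alternatives without mixed or cycling nuclei or without neutrophil-like nuclei, and thinning to 1000 UMIs, were in part chosen after seeing the data.

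With the members and list genes kept in the clustering, neutrophil-like scaffold nuclei stood at 409 CPM for Nos2 and 463 CPM for Irg1, and their ratios over macrophage-like nuclei were 0.460 for Arg1, 6.0 for Nos2 and 3.66 for Irg1. The macrophage-like over other lineages ratio of Irg1 was then 1.46. With nuclei assigned by marker score, Arg1 in scaffold macrophage-like nuclei was 253 CPM, neutrophil-like Nos2 598 CPM and Irg1 515 CPM, their ratios over macrophage-like nuclei 6.74 and 3.74, and the macrophage-like over other lineages ratios 3.36 for Arg1 and 1.55 for Nos2. At the finer clustering, Nos2 macrophage-like over other lineages was 1.81 with scaffold and 1.58 with HGF scaffold, and Irg1 1.76 with scaffold. With each library clustered alone, the HGF scaffold over scaffold ratio in macrophage-like nuclei was 1.19 for Nos2 and 2.06 for Irg1.

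With equal weight per nucleus, neutrophil-like scaffold nuclei stood at 1828 CPM for Nos2 and 1336 CPM for Irg1, macrophage-like over other lineages ratios were 6.11 (Arg1, HGF scaffold), 1.92 and 2.13 (Nos2, scaffold and HGF scaffold) and 1.63 and 3.94 (Irg1), Arg1 scaffold over untreated was 9.72 and Irg1 HGF scaffold over scaffold 1.19. Without mixed nuclei the neutrophil-like levels were 1331 CPM for Nos2 and 934 CPM for Irg1, Irg1 macrophage-like over other lineages was 1.45, its HGF scaffold over scaffold ratio 1.20, and 10 scaffold nuclei held all 3 genes. With at least 1000 UMIs per nucleus, neutrophil-like Nos2 was 940.1 CPM and the HGF scaffold macrophage-like over other lineages ratio of Nos2 was 0.367.

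Among Irg1-holding macrophage-like nuclei, Arg1 was in 18.2% (scaffold) and 0% (HGF scaffold) at 2 UMIs of each gene and in 16.1% (scaffold) at 1000 UMIs per nucleus. Nos2 was in 41.2% and 40.0% of Irg1-holding neutrophil-like nuclei at 500 and 1000 UMIs. All 3 genes were held by 9 scaffold nuclei at 2 UMIs, 0 at 500 UMIs per nucleus and 3 at 1000.

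Counts of genes past 2-fold followed the UMI minimum. Without a minimum beyond 1 UMI, they were 1473 higher and 1055 lower for scaffold over untreated (850 and 475 at 20 UMIs), 1831 higher for HGF scaffold over scaffold (269), 2324 and 816 for the same ratio in macrophage-like nuclei (232 and 321), 3779 higher for neutrophil-like over macrophage-like (727), 2402 higher for macrophage-like over other lineages with scaffold (717), and 2346 and 2331 with HGF scaffold (806 and 1473). At 50 UMIs they were 302 lower for scaffold over untreated, 127 and 366 for HGF scaffold over scaffold (612 lower at 20 UMIs), 54 and 100 in macrophage-like nuclei, 331 and 313 for neutrophil-like over macrophage-like (643 lower at 20 UMIs), and 523 and 845 for macrophage-like over other lineages with HGF scaffold. Depth limits the untreated macrophage-like values, which rest on 23 nuclei, and the HGF scaffold neutrophil-like values, which rest on 8.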
